A study of Arabidopsis thaliana with 10 samples.

Results

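The 41 genes described here encode the enzymes, transport factors and regulators of phenylpropanoid, flavonol and anthocyanin synthesis in *Arabidopsis thaliana*. They were chosen by gene identifier from a list of pathway genes, with no expression threshold, and all 41 were among the 32548 genes of the deposited tables. This list and the other gene lists below were drawn up with earlier results of these data known. The list comprised 8 entry steps, 8 early flavonoid and flavonol enzymes, 11 genes for anthocyanin enzymes and transport, and 14 regulators. RNA-seq was performed on seedlings aged 10 days, raised on MS medium at 23°C with 16 h of light and 8 h of darkness, with 2 libraries for each of 5 genotypes. The genotypes were wild-type Col-0, the mutants *fld* and *ld*, and the double mutants *efl2 efl4* and *sdg26 aprf1*, all in the Col-0 background. *FLD* and *LD* are autonomous pathway genes that promote flowering, and the study asked which genes are affected by loss of these and 4 associated genes. The *fld* and *ld* mutants and both parents of *sdg26 aprf1* (*sdg26* and *aprf1-9*) are T-DNA insertion lines, whereas the *efl2* and *efl4* mutations were made by CRISPR/Cas9 (the sample titles spell this mutant elf2/4). Each mutant comparison rests on a fixed line or pair of lines. Whole seedlings were used, so a smaller share of pigmented cells and less RNA per cell cannot be told apart.

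The phenylpropanoid pathway begins when phenylalanine ammonia-lyase removes ammonia from phenylalanine, and cinnamate 4-hydroxylase and 4-coumarate:CoA ligase then make coumaroyl-CoA. Chalcone synthase commits this product to flavonoids, after which flavonol synthase and dihydroflavonol reductase compete for shared precursors and lead to colourless flavonols or coloured anthocyanins. In *Arabidopsis* seedlings the flavonol branch is switched on by MYB11, MYB12 and MYB111, and the late anthocyanin genes by a complex of a MYB protein, a bHLH protein and the WD40 protein TTG1, which together respond to light, sugar, cold and nutrient supply.

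The expression values are normalized reads per gene, and all 10 libraries were placed on the same scale. The libraries held 20455413 to 20768023 reads assigned to genes. The targeted genes were lower in the mutants that carry the labels. *FLD* was at 42.7 and 40.0 normalized reads in *fld* against 422 to 495 in the other libraries, and *LD* at 389 and 432 in *ld* against 643 to 765. In *sdg26 aprf1*, *SDG26* was at 50.3 and 54.6 against 265 to 351 elsewhere, and *APRF1* at 100.7 and 87.4 against 146 to 207. In *efl2 efl4*, *EFL2* was at 112 and 146 against 160.1 to 220.5 elsewhere, and *EFL4* at 112 and 90.5 against 116 to 148, where an edited gene need not lose its transcript. All 6 leaf and all 6 root markers had reads in every library. Of 6 seed markers, *CRA1* and *CRU3*, which encode seed storage proteins, stood out in the library of *efl2 efl4* replicate 2, with 105.5 and 16.9 normalized reads against at most 7.95 and 0 in the other 9.

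Most of the pathway was well expressed in these seedlings. Per length of exon, as the mean RPKM over the 10 libraries (reads scaled to exon length and library depth), chalcone synthase *CHS* was the highest of the 41 genes at 530.2, followed by *C4H* at 156, *DFR* at 140.4 and *CHIL* at 115. *CHIL* encodes a chalcone isomerase-like protein that assists *CHS*. The late anthocyanin genes ranged from 14.4 for *3AT1*, a coumaroyltransferase, to the 140.4 of *DFR*. Among the regulators, *LBD37*, a nitrogen-responsive repressor of anthocyanin genes, had the highest level per length at 96.3, and the anthocyanin MYB genes *MYB75*, *MYB90*, *MYB113* and *MYB114* had 9.69, 3.34, 0.16 and 0.0932. *MYB113* and *MYB114* did not reach a mean of 10 normalized reads, the minimum for a test, so 39 of the 41 genes were tested. *MYB113* ranged from 0 to 6.04 normalized reads and *MYB114* from 0 to 7.95, and a library with no read allows up to 3.

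**Figure D1:**
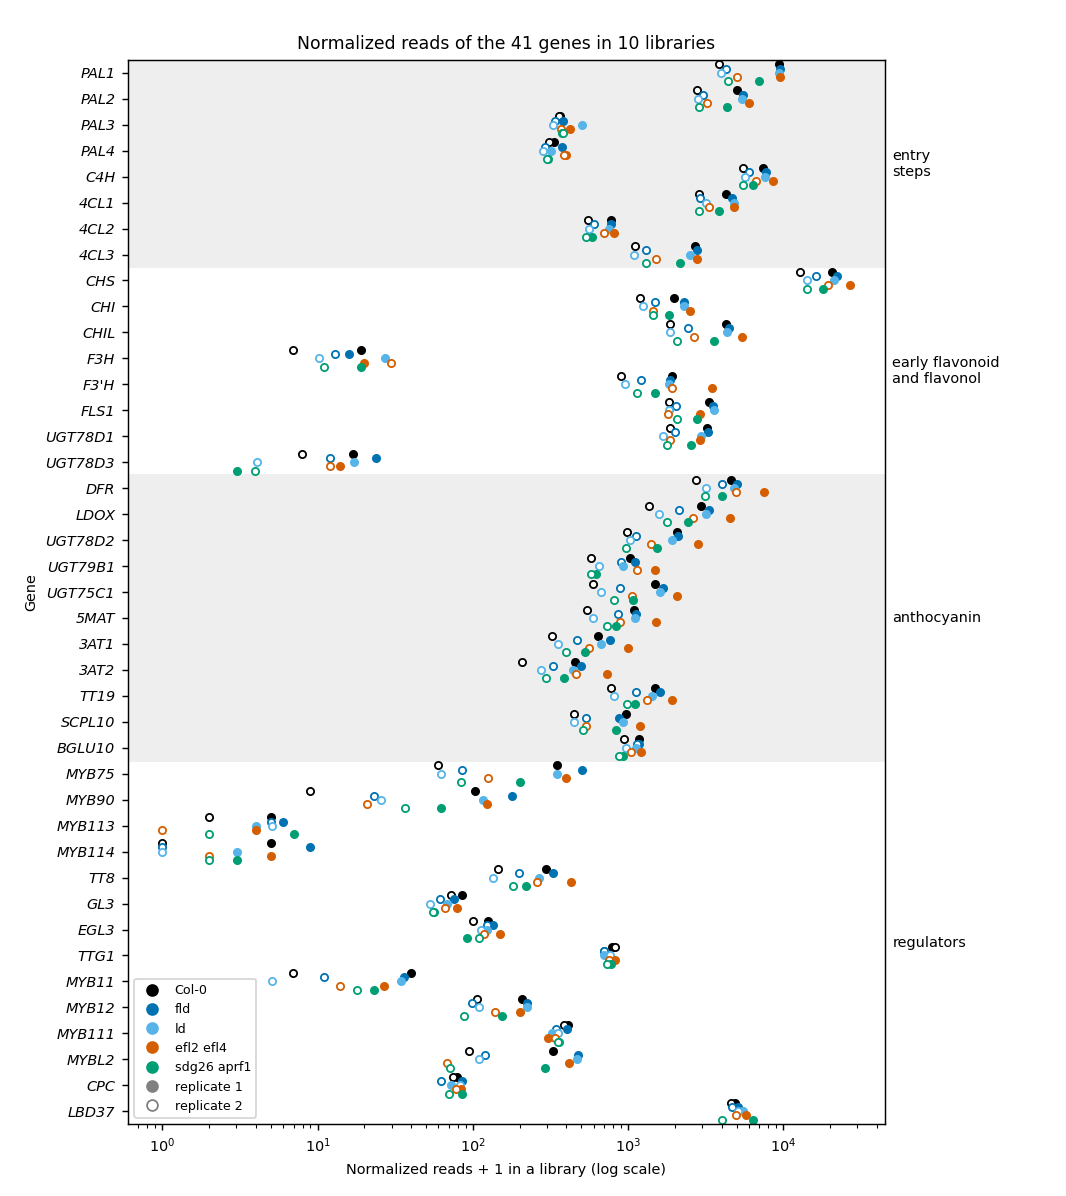
Normalized reads + 1 (horizontal log axis) of the 41 genes (rows, grouped by role) in each of the 10 libraries; colours are genotypes, filled circles replicate 1 and open circles replicate 2. For most enzymes and for MYB75, MYB90, MYB12 and MYBL2 the open circles lie to the left of the filled ones.

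*F3H*, which encodes flavanone 3-hydroxylase (AT3G51240, chromosome 3 from 19025192 to 19026872 on the + strand, TAIR10.1), acts between *CHI* and *FLS1* or *DFR* but had almost no counted reads. It was listed at 18, 14.9, 26.2, 18.9 and 18.1 normalized reads in the replicate 1 libraries and at 5.93, 12, 9.17, 28.9 and 9.93 in the replicate 2 libraries, where values of 5 libraries run, here and below, from Col-0 through *fld*, then *ld*, then *efl2 efl4*, to *sdg26 aprf1*. *CHS*, upstream of it, had 12834 to 27025. In the annotation, 93.8% of the exon bases of *F3H* also lie in the antisense long non-coding RNA gene AT3G51238, on the opposite strand, which had 0 to 3 reads per library. Among 539 protein-coding genes with at least 90% of their exon bases in another annotated gene, 98.7% had a mean under 30 reads and 82% had no read in any library, against 36% and 13.3% of the 19961 genes without such overlap. Whether reads were counted by strand is not given in the sources used here. The low value of *F3H* therefore cannot be read as its transcript level. *UGT75C1* (27.1% of exon bases in other genes) shares exon bases to a lesser extent, and *3AT1* and *3AT2* share sequence, with only 60.1% and 59.2% of their windows of 50 bases unique in the genome, so their counts are uncertain. This holds to a lesser extent for *BGLU10*, with 85.8% of such windows unique.

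**Figure D2:**
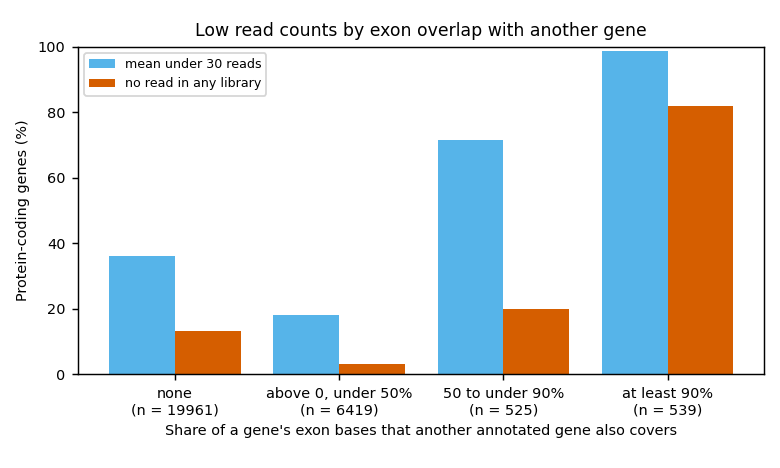
Share of protein-coding genes (vertical axis, %) with a mean under 30 reads (blue) or no read in any of the 10 libraries (orange), by the share of their exon bases that another annotated gene also covers (horizontal axis, with the number of genes). In the class that holds F3H, at least 90%, the shares are 98.7% and 82%.

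The libraries of these genes separated by replicate number more than by genotype, with the larger share of the variation taken by the replicate number for 29 of the 39 tested genes. All 39 tested genes had a fitted log2 difference below 0 for replicate 2 relative to replicate 1, with a median log2 difference of -0.69 against -0.00039 over all 20050 genes tested. With the genotype in the model, 30 of the 39 were lower in the replicate 2 libraries at a Benjamini-Hochberg adjusted p under 0.05 in limma and none was higher, where 15.6% of all genes were called lower and 13.4% higher. At an unadjusted p under 0.05, 40.2% of all genes differed. The labels give the replicate number but not what it marks, such as a day, a plate or a sowing. With 5 pairs of libraries, a sign-flip test of a gene could not go below an exact p of 0.0625, so the calls rest on the fit across all genes.

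Among the entry steps, 6 of 8 genes fell, namely *PAL1*, *PAL2*, *C4H*, *4CL1*, *4CL2* and *4CL3*. *PAL1* (AT2G37040) had 9308, 9506, 9333, 9534 and 7004 normalized reads in the replicate 1 libraries and 3846, 4277, 3983, 5038 and 4409 in the replicate 2 libraries. Every replicate 2 library was below every replicate 1 library, and the means of 8937 ± 1085 and 4311 ± 465 (SD, n = 5 each) gave a log2 difference of -1.05 (SE 0.077, adjusted p = 1.25e-05). *4CL3* (AT1G65060), the 4-coumarate:CoA ligase linked to flavonoids, had 2713, 2770.0, 2494, 2779 and 2166 in replicate 1 and 1104, 1308, 1094, 1505 and 1304 in replicate 2, again without overlap, and a log2 difference of -1.04 (SE 0.072, adjusted p = 8.95e-06). *C4H* (AT2G30490), for cinnamate 4-hydroxylase, had 7383, 7763, 7579, 8559 and 6335 in replicate 1 and 5475, 6050.3, 5658, 6657 and 5498 in replicate 2. Its highest replicate 2 library, *efl2 efl4*, lay above its lowest replicate 1 library, *sdg26 aprf1*. The log2 difference of *C4H* was -0.36 (SE 0.039, adjusted p = 0.000119). *PAL3* and *PAL4*, the weakly expressed ammonia-lyases, had log2 differences of -0.20 and -0.14 and did not pass (adjusted p = 0.114 and 0.117 in limma).

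Among the early flavonoid and flavonol enzymes, 6 of 8 fell and *F3H* and *UGT78D3*, both with under 30 normalized reads in every library, did not pass the test. *CHS* (AT5G13930) had 20709, 22094, 21046, 27025 and 18027 normalized reads in replicate 1 and 12834, 16276, 14294, 19357 and 14258 in replicate 2, and was lower in replicate 2 in all 5 genotypes although the sets overlapped. Its mean was 1.41-fold higher in replicate 1, with a log2 difference of -0.50 (SE 0.047, adjusted p = 5.07e-05). *CHIL* (AT5G05270) had 4243, 4464, 4318, 5377 and 3581 and 1866, 2432, 1869.7, 2655 and 2073, without overlap, and a log2 difference of -1.01 (SE 0.06, adjusted p = 3.45e-06). *FLS1* (AT5G08640), the main flavonol synthase, had 3300.4, 3514, 3577, 2884 and 2774 and 1826, 2027, 1828, 1816 and 2055. Its libraries also did not overlap, and the log2 difference was -0.74 (SE 0.066, adjusted p = 3.44e-05). *CHI*, *F3'H* and *UGT78D1*, for chalcone isomerase, flavonoid 3'-hydroxylase and a flavonol rhamnosyltransferase, fell by 0.68, 0.77 and 0.70 on the log2 scale.

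All 11 genes for anthocyanin enzymes and transport fell. *DFR* (AT5G42800), for the reductase that leads into this branch, had 4614, 5020.2, 4791, 7504 and 4015 normalized reads in replicate 1 and 2722, 4001, 3176, 4957 and 3141 in replicate 2. The *efl2 efl4* libraries were the highest of each set, and the log2 difference between the sets was -0.53 (SE 0.06, adjusted p = 0.000155). *LDOX* (AT4G22880), which encodes anthocyanidin synthase, had 2943, 3339, 3166, 4552 and 2446 and 1364, 2143, 1578, 2618 and 1792, with a log2 difference of -0.80 (SE 0.082, adjusted p = 8.22e-05). *TT19* (AT5G17220), a glutathione S-transferase needed to bring anthocyanins to the vacuole, had 1495, 1605, 1415, 1930.0 and 1104 and 772, 1129.8, 814, 1315 and 978. For both, each genotype was lower in replicate 2 while the sets overlapped, and the log2 difference of *TT19* was -0.60 (SE 0.091, adjusted p = 0.000962).

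*UGT75C1*, *UGT78D2* and *SCPL10* were the 3 genes of this group whose sets did not overlap, and in *UGT79B1*, *5MAT*, *3AT1* and *3AT2*, which also act on the pigment, the replicate 1 mean was 1.35-fold, 1.58-fold, 1.72-fold and 1.6-fold the replicate 2 mean. *UGT75C1* (AT4G14090), the anthocyanin 5-O-glucosyltransferase, had 1484, 1679.7, 1606, 2059 and 1077 normalized reads in replicate 1 and 593, 891, 668, 1057 and 816 in replicate 2, a log2 difference of -0.97 (SE 0.11, adjusted p = 0.000154). *UGT78D2* (AT5G17050), a 3-O-glucosyltransferase of flavonols and anthocyanidins, had 2079, 2110.1, 1906, 2820.2 and 1527 and 983, 1126, 1032, 1404 and 970.3, a log2 difference of -0.91 (SE 0.056, adjusted p = 4.65e-06). *SCPL10* (AT2G23000), a serine carboxypeptidase-like acyltransferase gene, had 962, 875, 924, 1192 and 836 and 448, 536, 446, 533 and 510.5, a log2 difference of -0.94 (SE 0.074, adjusted p = 1.68e-05). The smallest drop of the group was that of *BGLU10*, an anthocyanin glucosyltransferase, at -0.17 (SE 0.048, adjusted p = 0.0228).

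Of the 12 regulators tested, 7 fell. The genes with the largest drops of the 39 tested were the anthocyanin activators *MYB75* and *MYB90*, also known as *PAP1* and *PAP2*, and the repressor *MYBL2*. *MYB75* (AT1G56650) had 348, 506, 348, 399 and 200.3 normalized reads in replicate 1 and 58.3, 84.1, 61.1, 123 and 83.4 in replicate 2, 4.39-fold higher on average in replicate 1, with a log2 difference of -2.11 (SE 0.18, adjusted p = 3.08e-05). *MYB90* (AT1G66390) had 103, 179, 115, 121 and 61.4 and 7.9, 22, 24.5, 19.9 and 35.8, 5.27-fold higher on average in replicate 1, with a log2 difference of -2.40 (SE 0.32, adjusted p = 0.000383). *MYBL2* (AT1G71030) had 328, 475, 465, 418 and 289 and 93.8, 119, 108, 67.7 and 70.5, 4.3-fold higher on average, with a log2 difference of -2.10 (SE 0.11, adjusted p = 1.34e-06). For each of these 3 genes every replicate 2 library was below every replicate 1 library.

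The bHLH partner *TT8* (AT4G09820) had 295, 326, 264, 427 and 218 normalized reads in replicate 1 and 143, 197, 134, 258 and 179.8 in replicate 2, and a log2 difference of -0.75 (SE 0.10, adjusted p = 0.000462). Its sets overlapped only through the *efl2 efl4* library of replicate 2, which was above the *sdg26 aprf1* library of replicate 1. The flavonol activators differed from each other. *MYB12* (AT2G47460) had 206, 222, 222, 200.2 and 152 and 106, 98.1, 108, 137 and 86.4 and fell without overlap, by 0.90 (SE 0.096, adjusted p = 0.000107). *MYB11* (AT3G62610), at 39, 34.8, 33.3, 25.9 and 22.1 and 5.93, 10.0, 4.08, 12.9 and 16.9, fell by 1.66 (SE 0.34, adjusted p = 0.00471). *MYB111*, the most abundant per length of this trio, had a log2 difference of -0.012 (adjusted p = 0.913 in limma).

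*GL3*, *EGL3*, *TTG1* and *CPC*, which also act in trichome and root-hair patterning, did not pass the test. *GL3* (AT5G41315), a bHLH gene, had 84, 74.5, 67.6, 77.7 and 55.4 normalized reads in replicate 1 and 71.1, 60.04, 52, 65.7 and 54.6 in replicate 2, and a log2 difference of -0.24 (SE 0.10, adjusted p = 0.11). *CPC* (AT2G46410), a small MYB repressor, had 78, 84.5, 71.6, 82.7 and 83.6 and 73.1, 61, 81.5, 76.6 and 69.5, and a log2 difference of -0.15 (SE 0.11, adjusted p = 0.356). *EGL3* and *TTG1* had log2 differences of -0.13 and -0.00068 (adjusted p = 0.367 and 0.994 in limma). *LBD37* passed, at -0.24 (SE 0.074, adjusted p = 0.0363), with its largest difference in *sdg26 aprf1*. At the thresholds of the study's methods, a log2 difference of at least 1 and an unadjusted P under 0.01, 7 members were called lower in replicate 2 and 0 higher, where 0.908% and 0.539% of all genes were called: *PAL1*, *4CL3*, *CHIL*, *MYB75*, *MYB90*, *MYB11* and *MYBL2*. This count was 4 without Col-0 replicate 1, and also 4 without Col-0 replicate 2, whereas the count at an adjusted p under 0.05 stayed between 28 and 31 when any library was left out.

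**Figure D3:**
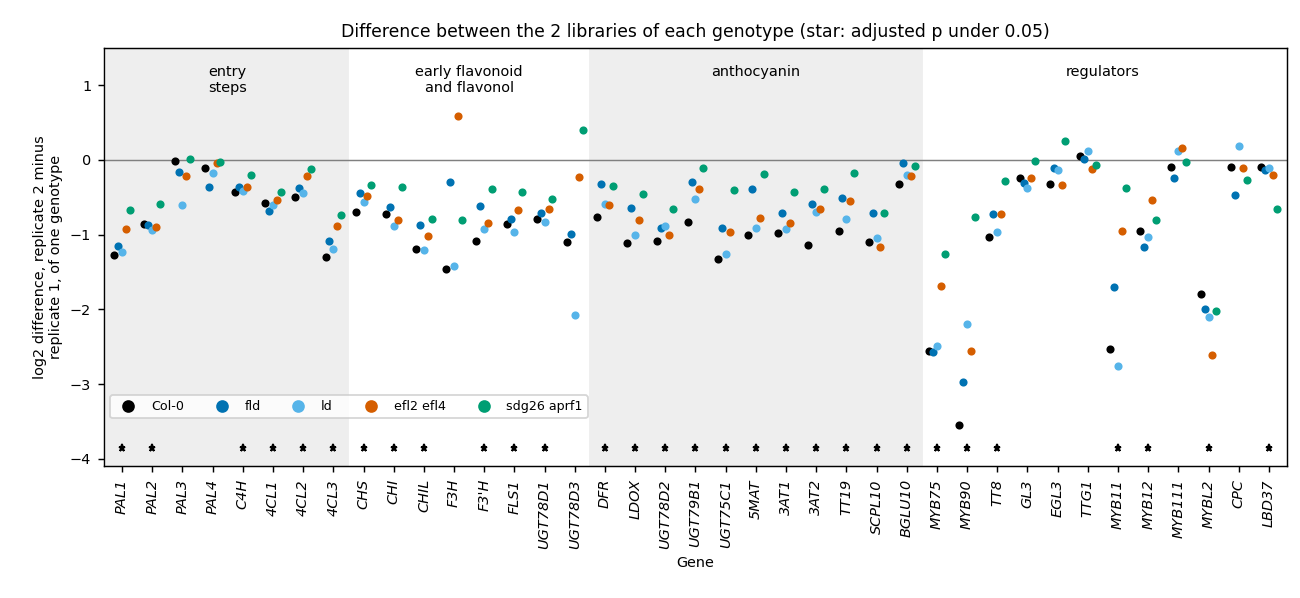
The log2 difference of replicate 2 minus replicate 1 (vertical axis) for the 39 tested genes (horizontal axis, grouped by role), with 1 point per genotype; a star marks an adjusted p under 0.05 in limma. The points of the 11 anthocyanin genes all lie below 0, and those of MYB75, MYB90 and MYBL2 reach the lowest values with MYB11.

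The size of the drop differed between the 5 pairs of libraries. Over the 39 tested genes the median log2 difference of replicate 2 from replicate 1 was -0.95 in Col-0, -0.88 in *ld*, -0.65 in *efl2 efl4*, -0.63 in *fld* and -0.39 in *sdg26 aprf1*, against medians between -0.0081 and -0.00097 over all genes tested. Of the 30 genes called lower, 24 had their smallest drop in *sdg26 aprf1* and 18 their largest in Col-0. *MYB90*, for example, differed by -3.55, -2.97, -2.19, -2.55 and -0.76, in the order of genotypes above. The counts of 24 and 18 were not compared with those of all genes. Each drop rests on 1 pair of libraries, and a low replicate 1 value makes it smaller. In replicate 1 the *sdg26 aprf1* library was the lowest for 33 of the 39 tested genes, as for 24.7% of all genes. With 1 library for each genotype and replicate number, whether the drop differs between genotypes could not be tested. In a decomposition of the log2 values, the replicate number took a median of 62% of the sum of squares of the 39 genes and the genotype 27.9%, against 22.3% and 40.4% over all genes tested. For 16 of the 39, the replicate 2 libraries all lay below the replicate 1 libraries, as for 9.07% of all genes.

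Genes of the other phenylpropanoid branches also differed between the sets. Over all genes, 15.6% were lower and 13.4% higher at an adjusted p under 0.05 in limma. Of 13 lignin and sinapate genes, 12 were tested, and 7 were lower and 1 higher in the replicate 2 libraries, with a median log2 difference of -0.17 over the 12, and the largest differences were those of *UGT84A2*, a sinapate glucosyltransferase, at -0.84 (SE 0.091, adjusted p = 0.000115) and *CAD4*, a cinnamyl alcohol dehydrogenase, at -0.50 (SE 0.045, adjusted p = 3.72e-05). Only 2 of the 8 proanthocyanidin genes had enough reads for a test, as is usual outside the seed coat, and of these *TTG2* fell by 0.71 (SE 0.096, adjusted p = 0.000434) while *AHA10* was at -0.41 (SE 0.17, adjusted p = 0.105). Of 4 other flavonol genes tested, the rhamnose synthase gene *RHM1* and the transporter gene *DTX35* fell by 0.66 and 0.52 on the log2 scale, and *FLS5* was higher. Among 18 other regulators tested, 10 were lower and 3 higher, with the largest differences in *KFB20*, for an F-box protein that targets PAL enzymes, at -1.09 (SE 0.14, adjusted p = 0.00038) and *TRY*, a small MYB repressor, at -0.92 (SE 0.18, adjusted p = 0.00339). *HY5*, the light-signalling activator of *CHS*, was lower in each genotype and fell by 0.67 (SE 0.067, adjusted p = 6.93e-05).

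Genes of conditions known to move this pathway also differed between the sets. All 3 light-stress genes were lower in the replicate 2 libraries, with a summed level of 323 to 400.2 normalized reads against 666 to 894 in the replicate 1 libraries, and all 6 phosphate-starvation genes were lower, at 4862 to 6152 against 7008 to 10401. *NIA1*, *NIA2* and *NIR1* of nitrate assimilation were higher and the nitrate transporter gene *NRT2.1* lower. Of the others, 2 of 4 tested cold genes, 1 of 3 sugar genes and 3 of 5 jasmonate genes were lower, and 1 jasmonate gene was higher. Over all genes, 15.6% were lower and 13.4% higher. The sugar genes had a median log2 difference of -0.77, and summed to 2021 to 2966 in replicate 2 against 3183 to 4303 in replicate 1. The sums of the cold genes and of the jasmonate genes overlapped between the sets. Leaf markers summed to 522360 to 587435 in replicate 2 and 527255 to 571248 in replicate 1, with 1 of 6 higher and 1 lower, and root markers to 43808 to 51685 and 39166 to 46500.1, with 2 of 6 higher. The part of these differences in those of the pathway was not tested.

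Upstream sequence was examined because these genes moved together. In the 250 bases upstream of the annotated start of each gene (RefSeq annotation, TAIR10.1), the G-box CACGTG, a core bound by HY5 and bHLH proteins, was searched on both strands together with the AC elements ACCTACC and ACCAACC and the MYB motifs ACCTAAC and ACCAAAC. The G-box was in 10 of the 41 promoters and in 6.49% of 27443 promoters of the genome, and ACCAAAC in 7 of the 41 and in 8.29%. ACCAACC was in 4 of the 41 and in 2.69% of all promoters, ACCTACC in 2 and in 1.16%, and ACCTAAC in 2 and in 2.46%. A match is a string of letters and not a site. The promoters of *CHS*, *DFR*, *MYB90* and *F3'H* are shown because they include the most abundant gene, the entry to anthocyanins, the regulator with the largest drop and, without any of the 5 motifs, the gene with the largest fitted difference among well-counted genes in *efl2 efl4*. Capitals mark motif matches, 5′ to 3′ on the strand of the gene. They are a G-box at 233 bases before the start of *CHS* (chr5:4488226-4488475, + strand), a G-box at 14 and ACCAAAC at 149 bases before *DFR* (chr5:17166033-17166282, - strand), which do not overlap, and a G-box at 46 bases before *MYB90* (chr1:24763691-24763940, + strand). The *F3'H* window is chr5:2560078-2560327 on the + strand.
CHS: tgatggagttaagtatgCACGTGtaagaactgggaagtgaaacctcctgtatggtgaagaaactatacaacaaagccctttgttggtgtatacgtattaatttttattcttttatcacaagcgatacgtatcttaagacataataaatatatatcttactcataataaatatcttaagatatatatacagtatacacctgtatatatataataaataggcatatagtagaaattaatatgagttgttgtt
DFR: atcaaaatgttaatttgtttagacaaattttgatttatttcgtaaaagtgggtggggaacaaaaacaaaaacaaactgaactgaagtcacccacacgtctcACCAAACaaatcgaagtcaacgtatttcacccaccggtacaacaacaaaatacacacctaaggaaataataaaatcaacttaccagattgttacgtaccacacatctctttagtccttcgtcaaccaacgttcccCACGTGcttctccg
MYB90: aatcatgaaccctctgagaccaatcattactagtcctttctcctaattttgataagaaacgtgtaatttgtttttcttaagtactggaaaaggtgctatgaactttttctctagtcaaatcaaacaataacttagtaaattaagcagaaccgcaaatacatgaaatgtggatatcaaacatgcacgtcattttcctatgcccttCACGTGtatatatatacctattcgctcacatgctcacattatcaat
F3'H: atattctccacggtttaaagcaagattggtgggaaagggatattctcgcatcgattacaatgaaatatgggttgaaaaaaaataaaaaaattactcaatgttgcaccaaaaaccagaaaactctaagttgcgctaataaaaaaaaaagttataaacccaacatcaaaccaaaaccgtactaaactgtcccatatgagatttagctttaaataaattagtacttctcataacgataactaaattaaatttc

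Each mutant was compared with Col-0 to ask whether loss of these flowering genes altered the pathway. In *efl2 efl4* the anthocyanin branch was higher than in Col-0 within both replicate sets. Without the replicate number in the model, 0 members were called in each of the 4 mutants. With the replicate number as a block, *efl2 efl4* had the most members at an adjusted p under 0.05. All 11 anthocyanin enzyme and transport genes were above Col-0 in replicate 1 (median log2 difference 0.47) and in replicate 2 (median 0.78), where 30.3% of all genes were higher in both. Here and below, these genes are not 11 separate observations. Each set holds 1 library per genotype, and the 11 genes correlated at 0.842 to 0.994 with their own mean profile over the 10 libraries. Among the 5 genotypes, *efl2 efl4* had the highest value of all 11 genes in replicate 1 and of 9 in replicate 2, as it had of 22.8% and 24% of all genes. The test without regard to replicate number, limma on the 4 libraries, called 0 of 39 members at either threshold (0.434% of all genes were called with a log2 difference of at least 1 and an unadjusted P under 0.01, and 0.00499% at an adjusted p under 0.05). At an unadjusted p under 0.05 it gave 1 member, *MYB111*, where it gave 4.70% of all genes, and edgeR and DESeq2 also called 0. The labels do not state that the replicate numbers pair the libraries, and the pairing was assumed from correlations in these data. With the replicate number as a block, 13 members were higher and 0 lower at an adjusted p under 0.05, where 1.70% of all genes were higher and 1.16% lower. At the study's thresholds 0 members were called with the block, where 0.844% of all genes were. The blocked fit of 4 libraries leaves 1 residual degree of freedom per gene. In a blocked fit of all 10 libraries, 8 members were higher and 0 lower, where 1.26% of all genes were higher and 0.963% lower. Both *efl2 efl4* libraries lay above both Col-0 libraries for 8 of 39 members, as for 16.1% of all genes, and below both for 1, as for 15.5%.

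The 8 genes were *CHS*, *F3'H*, *DFR*, *LDOX*, *UGT78D2*, *UGT79B1*, *3AT1* and *3AT2*, and the blocked fit of 4 libraries added *CHIL*, *UGT75C1*, *5MAT*, *TT19* and *TT8*. *F3'H* (AT5G07990), whose enzyme adds the hydroxyl group that makes cyanidin-type pigments, had 3448 and 1922 normalized reads in *efl2 efl4* against 1903 and 898 in Col-0. The mutant libraries lay above both Col-0 libraries, and the log2 difference was 0.97 (SE 0.44, adjusted p = 0.999 in limma; with the block SE 0.083, adjusted p = 3.39e-05, and in the blocked fit of 10 libraries 0.00545). *3AT2* (AT1G03495) had 728 and 464 against 453 and 205, without overlap, a log2 difference of 0.92 (SE 0.43, adjusted p = 0.999 in limma, and 0.00108 with the block). *DFR* had 7504 and 4957 against 4614 and 2722, again without overlap, a log2 difference of 0.78 (SE 0.31, adjusted p = 0.999, and 8.45e-05 with the block). *F3H* also lay above Col-0 in both libraries, at 18.9 and 28.9 against 18 and 5.93, but did not pass with the block (log2 difference 1.09, adjusted p = 0.324 in limma). Its few counted reads cannot be read as its transcript level, as described above. These sizes depended on the Col-0 libraries in the fit without the block. Without Col-0 replicate 2 the log2 differences of *F3'H*, *3AT2*, *DFR* and *F3H* were 0.43, 0.35, 0.40 and 0.36, and without Col-0 replicate 1 they were 1.52, 1.49, 1.16 and 1.82.

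*UGT79B1*, the xylosyltransferase of anthocyanin glucosides, had 1496 and 1139 normalized reads in *efl2 efl4* against 1024 and 575 in Col-0. Here, too, the libraries did not overlap, with a log2 difference of 0.76 and an adjusted p of 0.00129 in limma with the block. The other 9 genes, *LDOX*, *3AT1*, *TT8*, *UGT75C1*, *5MAT*, *TT19*, *CHS*, *UGT78D2* and *CHIL*, overlapped with Col-0 across the replicate sets. Their log2 differences ran from 0.78 for *LDOX* to 0.42 for *CHIL*. Without Col-0 replicate 2 they ran from 0.22 for *LDOX* to -0.17 for *CHIL*, and without Col-0 replicate 1 from 1.34 for *LDOX* to 0.83 for *CHS*, while *UGT79B1* was at 0.34 and 1.18. *LDOX* had 4552 against 2943 in replicate 1 and 2618 against 1364 in replicate 2. *TT8* was the only regulator among the 13, with 427 against 295 and 258 against 143 (adjusted p = 0.00934 in limma with the block, and 0.0613 with all 10 libraries).

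*FLS1*, *UGT78D1*, *MYB12* and *MYB111* did not pass in *efl2 efl4*. *FLS1* had 2884 and 1816 normalized reads against 3300.4 and 1826 in Col-0, a log2 difference of -0.11 (SE with the block 0.078, adjusted p = 0.622 in limma). *UGT78D1* was at -0.072 and *MYB12* at 0.16 (adjusted p = 0.763 and 0.715). *MYB111* (AT5G49330) was lower in both *efl2 efl4* libraries than in both Col-0 libraries, at 302 and 338 against 412 and 387, a log2 difference of -0.33 that did not pass (adjusted p = 0.178 with the block). *MYB90* had 121 and 19.9 against 103 and 7.9 in Col-0, overlapping across the sets, a log2 difference of 0.73 (adjusted p = 0.256 in limma with the block). *MYB75* and *MYBL2* had log2 differences from Col-0 of 0.63 and -0.062 (adjusted p = 0.0996 and 0.929 with the block). The 8 entry steps were all higher than Col-0 in both sets, with a median log2 difference of 0.22, and 0 passed.

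The count of 8 in the fit of all 10 libraries depended on single libraries. It was 0 without *efl2 efl4* replicate 1, 1 without *efl2 efl4* replicate 2, 3 without Col-0 replicate 2, and 16 without *sdg26 aprf1* replicate 1 or without *sdg26 aprf1* replicate 2. The *efl2 efl4* library of replicate 2 is the library with seed storage transcripts. In replicate 1, where *CRA1* was at 5.98 in *efl2 efl4* and 5 in Col-0, *DFR* was 0.70 above Col-0 on the log2 scale, and in replicate 2 it was 0.86 above. The median log2 difference of the 11 anthocyanin genes was 0.47 in replicate 1 and larger, at 0.78, in replicate 2. Of 6 root markers, *TIP2;3*, for a root aquaporin, was lower in *efl2 efl4* with the block, at -1.47. The 6 root markers together were not lower. They summed to 45478.6 and 50657.5 normalized reads in *efl2 efl4* against 44248.9 and 48637.5 in Col-0. The part of these transcripts in the differences of the pathway was not tested. Outside the members, with the block, 3 of 12 lignin and sinapate genes were higher in *efl2 efl4*, where 1.70% of all genes were higher. The largest differences were in *CAD5*, at 0.46, and *OMT1*, at 0.43. Of 4 other flavonol genes 1 was higher, *FLS5*, at 0.37. Of 18 other regulators 1 was higher, *LBD38*, a relative of *LBD37*, at 0.47, and *MYB32* was at -0.51 (adjusted p = 0.158). Neither of the 2 proanthocyanidin genes tested passed.

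**Figure D4:**
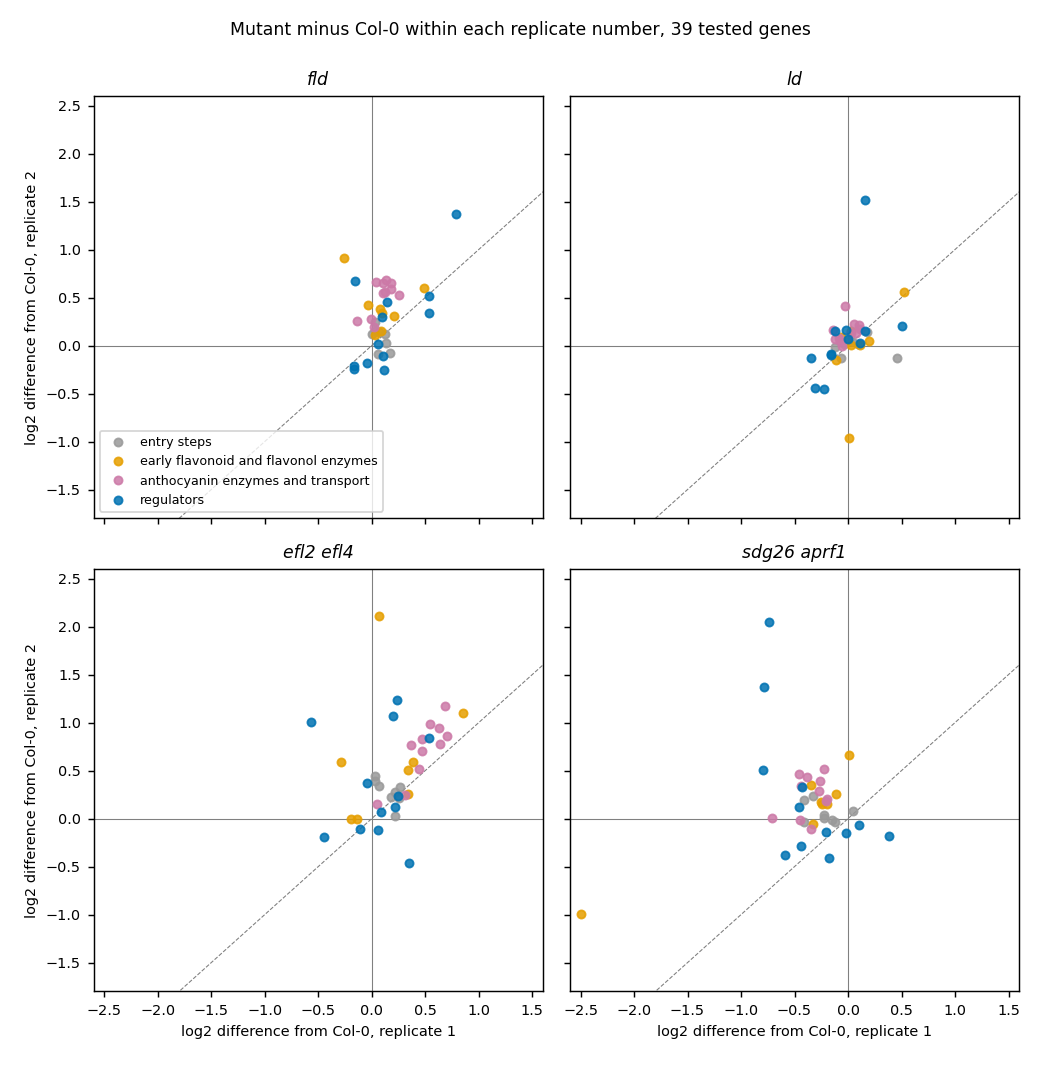
The log2 difference from Col-0 in replicate 1 (horizontal axis) and in replicate 2 (vertical axis) for the 39 tested genes in each of the 4 mutants, coloured by role; the dashed line marks equal differences. In efl2 efl4 all 11 anthocyanin genes lie above 0 on both axes, whereas in sdg26 aprf1 most genes lie to the left of 0 and 0 of the 11 are above 0 on both axes.

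In *fld* the same 11 anthocyanin genes had a median log2 difference of 0.11 from Col-0 in replicate 1 and 0.56 in replicate 2, and 9 of the 11 were higher in both, against 29.9% of all genes. Without the block limma called 0 of 39 members at either threshold, where 0.394% of all genes were called at the study's thresholds and 0.00997% at an adjusted p under 0.05. At an unadjusted p under 0.05 there were also 0, where there were 3.79% of all genes, and edgeR and DESeq2 called 0. With the block 5 members were higher and 0 lower at an adjusted p under 0.05, where 1.35% of all genes were higher and 0.908% lower: *MYB75*, *MYB90*, *CHI*, *LDOX* and *3AT1*. *MYB90* was the only member called at the study's thresholds with the block, where 0.344% of all genes were called higher. It had 179 against 103 in replicate 1 and 22 against 7.9 in replicate 2 (log2 difference 1.09, SE 0.24, adjusted p = 0.0433), and 0 members were called at these thresholds by edgeR with the block. *MYB75* had 506 against 348 and 84.1 against 58.3 (log2 difference 0.53, adjusted p = 0.0487 in limma with the block). *CHI* had 2292 against 1988 and 1485 against 1200.2 (adjusted p = 0.0448). In the blocked fit of all 10 libraries 0 members passed, where 0.738% of all genes did, with adjusted p = 0.482 for *MYB90* and 0.567 for *MYB75*. Only *TTG1*, at 699 and 702 against 785 and 817, of the 39 had *fld* libraries that did not overlap with Col-0, as had 14.7% of all genes that were lower and 14.6% that were higher, and it did not pass (log2 difference -0.19, adjusted p = 0.216 in limma with the block).

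In *ld* the members were close to Col-0. Their median log2 difference was 0.0039 in replicate 1 and 0.051 in replicate 2, 19 of 39 were higher in both sets, against 31.8% of all genes, and 9 were lower in both, against 29%. Limma called 0 of 39 members at either threshold, with or without the block, where 0.504% of all genes were called at the study's thresholds without it and 0.00499% at an adjusted p under 0.05. With the block these shares were 0.864% and 3.38%. At an unadjusted p under 0.05 there were 0 members without it, where there were 4.26% of all genes, and edgeR and DESeq2 called 0. Both *ld* libraries were above Col-0 for 1 member and below for 3, as for 14.9% and 15.2% of all genes. The largest differences among these were those of *GL3*, *MYB111* and *LBD37*. *GL3* had 67.6 and 52 normalized reads in *ld* against 84 and 71.1 in Col-0 (log2 difference -0.38, adjusted p = 0.338 with the block). This difference was -0.20 without *ld* replicate 2 and -0.56 without *ld* replicate 1. *MYB111* had 324 and 353 (-0.24, adjusted p = 0.227), and *LBD37* 5471 and 5096 against 4907 and 4595 (0.15, adjusted p = 0.137).

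In *sdg26 aprf1* the 11 anthocyanin genes had a median log2 difference from Col-0 of -0.35 in replicate 1 and 0.29 in replicate 2, whereas the 12 regulators tested had medians of -0.43 and -0.11. Of the 39 members, 2 were higher in both sets, against 26% of all genes, and 12 were lower in both, against 27.7%. In replicate 1 *sdg26 aprf1* had the lowest value of all 11 genes and of 33 of the 39 members, as it had of 24.7% of all genes, and in replicate 2 it had the lowest of 2 of the 11, where it had the lowest of 20.8% of all genes. Limma called 0 of 38 members at either threshold (0.498% of all genes were called at the study's thresholds and 0% at an adjusted p under 0.05), and 0 with the block, where 0.698% and 0.0399% of all genes were called. At an unadjusted p under 0.05 it gave 1 member, *GL3*, where it gave 4.56% of all genes, and edgeR and DESeq2 called 0. Both libraries were above Col-0 for 1 of the 38 members and below for 5, as for 14.8% and 15.4% of all genes. *GL3* had 55.4 and 54.6 normalized reads, below both Col-0 libraries (log2 difference -0.48, adjusted p = 1 in limma, and 0.568 with the block). *BGLU10* (AT4G27830) had 927 and 877 against 1181 and 942 in Col-0, a log2 difference of -0.23 that was -0.064 without Col-0 replicate 1 and -0.39 without Col-0 replicate 2. *MYB111* had 356 and 351 (log2 difference -0.18). *UGT78D3*, a flavonol arabinosyltransferase gene, did not reach the minimum in this comparison, with 2.01 and 2.98 against 16 and 6.91.

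A joint F test asked whether any of the 5 genotypes differed. Without the block limma called 0 of 39 members at an adjusted p under 0.05, where 0.150% of all genes were called, gave 1 member, *UGT79B1*, at an unadjusted p under 0.05, where it gave 6.92% of all genes, and edgeR and DESeq2 called 0. With the block it called 8 members, where 3.81% of all genes were called, the same 8 genes as the blocked comparison of *efl2 efl4* with Col-0 on all 10 libraries. Both calls come from the same blocked model, and the *efl2 efl4* difference is part of this F test. The match is therefore not a separate result. The 4 comparisons share the Col-0 libraries. Among the 4 mutants alone, with Col-0 left out, 11 members differed with the block and 0 without it, where 3.02% and 0.0799% of all genes did.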

How the data were processed

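Total RNA of seedlings was sequenced as single-ended reads of 50 bases. Per the labels and the study's methods, the authors aligned reads to TAIR10 with HISAT2, assigned them to genes with featureCounts and used edgeR for normalization, and the deposited signal is normalized reads per gene in 4 tables, each with 1 mutant and the 2 Col-0 libraries and each normalized separately. The annotation and strand setting of the counting are not given in the sources used here. Whole reads were recovered by dividing by the size of 1 read (99.0% to 100% of values whole within 0.1, counting values under 0.5 as 0), and the Col-0 reads were identical in all tables (0 genes differing). All 10 libraries were then scaled together by TMM. All columns of values in the tables were used except the authors' own comparisons, of which no value was taken.

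Mutants were compared with Col-0 in their own table by limma (3.58.1, two-sided, moderated with a mean-variance trend) on log2(normalized reads + 1), after removal of genes whose mean was below 10, and p-values were adjusted over all genes tested. Fold changes of weakly expressed genes are understated on this scale. The replicate sets were compared on all 10 libraries with the genotype in the model. The design had foreseen this fit for normalized values, and count tests on the recovered reads (edgeR 4.0.16, DESeq2 1.42.0) were alternatives. The study describes the replicates as independent. The numbers were taken as pairing the libraries because the differences between replicates correlated between genotypes at 0.371 to 0.611 over 20050 genes, above 0.1 in all 10 pairs of genotypes. Alternatives covered the test, pseudocount, filter, scaling, replicate block, libraries in the fit and each library left out. Fits of all 10 libraries with the block, edgeR with the block, the test among the 4 mutants and the filter on shared exons were chosen after seeing the data. The replicate-set fit, and the *efl2 efl4* fit and F test without the block, were run on simulated reads. So was the blocked fit of *efl2 efl4* on 10 libraries. The simulated reads of the genotype tests held no difference between replicates, and the other blocked fits were not simulated. Named genes were those called in a mutant comparison, in each mutant the 3 with the largest difference whose libraries did not overlap with Col-0, the 10 with the largest difference between replicate sets, and 14 chosen for their roles. The members and lists were chosen with earlier results of these data known. Gene positions came from RefSeq (TAIR10.1), in which all 32548 identifiers matched. R 4.3.3, Python 3.11.15 with numpy 2.4.6, pandas 2.3.3 and matplotlib 3.10.9 were used.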

Additional observations from a re-analysis of the deposited data

Results flagged for a closer look

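The levels of 11 members differed among the 4 mutants, with Col-0 left out, in the F test with the replicate block. This test was chosen after seeing the data. The adjusted p in limma was 0.00108 for *UGT79B1*, 0.00302 for *DFR*, 0.00392 for *F3'H*, 0.0063 for *3AT2*, 0.00773 for *UGT78D2*, 0.00995 for *CHS*, 0.0188 for *LDOX*, 0.0248 for *3AT1*, 0.0393 for *TT8*, 0.0412 for *TT19* and 0.0471 for *CHIL*. The highest mutant in each set was *efl2 efl4* for all 11, and without the block 0 members passed.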

How the results depend on the processing

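The replicate-set comparison kept its direction for every named gene under each alternative, with 28 to 31 members at an adjusted p under 0.05 (27 when members that share exons or windows with other genes were left out). Members called there at the study's thresholds ranged from 4 to 10 when a library was left out, and numbered 4 without both Col-0 libraries. The mutant comparisons depended on the replicate block. Pairing the libraries changed the members at an adjusted p under 0.05 from 0 to 13 in *efl2 efl4* (13 also in edgeR with the block, 8 with all 10 libraries and the block), from 0 to 5 in *fld* (3 in edgeR with the block), and from 0 to 8 in the F test among genotypes. At the study's thresholds limma with the block called 1 member in *fld*, and edgeR with the block and all 10 libraries with the block called 0. The block changed no call in *ld* and *sdg26 aprf1*. The F test among the 4 mutants gave 11 members with the replicate block and 0 without it. When a library was left out, the 8 members of the blocked fit of 10 libraries ranged from 0 to 16, and the members called at the study's thresholds without the block from 0 to 5 in *efl2 efl4* and from 0 to 1 in *sdg26 aprf1*, both highest without Col-0 replicate 1. The log2 differences between *efl2 efl4* and Col-0 then ranged from -0.016 to 1.31 for *UGT75C1*, from -0.17 to 1.015 for *CHIL* and from -0.070 to 1.014 for *UGT78D2*. They also moved for *F3'H* (0.43 to 1.52), *3AT2* (0.35 to 1.49), *DFR* (0.40 to 1.16), *TT8* (0.16 to 1.20) and *5MAT* (0.072 to 1.09). Without Col-0 replicate 2 the first 3 were below 0, and without *efl2 efl4* replicate 1 *CHIL* and *UGT78D2* were at -0.085 and -0.027. Of the genes named in the other mutants, *GL3* in *ld* ranged from -0.56 to -0.20 and *BGLU10* in *sdg26 aprf1* from -0.39 to -0.064. These settings leave a group with a library of 1 replicate set only. With 2 libraries per genotype, an exact permutation test of a mutant against Col-0 cannot go below p = 0.333. Intervals for read counts cover counting error only.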

Other observations

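The genes outside the list whose profile over the 10 libraries was most like the mean profile of the 11 anthocyanin genes were *BIO2* (AT2G43360), with a Pearson correlation of 0.974, after AT4G22240 at 0.980, and among the next 8, at 0.958 to 0.970, *PUT1*, *KUP11*, *dNK* and *PRMT11*. The libraries share the replicate number and 2 libraries of each genotype, and the 20050 genes were searched for the highest values. All 10 genes were lower in the replicate 2 libraries at an adjusted p under 0.05 in limma, by 0.13 to 0.58 on the log2 scale. Among the members, *3AT1*, *CHS* and *LDOX* followed this profile most closely (0.994, 0.993 and 0.993, the first and last being part of it), *TT8* at 0.980 and *C4H* at 0.983, whereas *TTG1* was at -0.065 and *MYB111* at -0.27. *FLS1*, at the head of the flavonol branch, was at 0.756.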
